A study of Mus musculus with 4 samples.

Results

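RNA polymerase I (Pol I) and RNA polymerase III (Pol III) genes were chosen by symbol, with earlier results of these data known. The rule took all genes named Polr1, Polr3 or Gtf3c with a further letter or number. It also took Gtf3a, Taf1a, Taf1b, Taf1c, Taf1d, Rrn3, Ubtf, Ttf1, Znrd1, Twistnb, Cd3eap, Brf1, Brf2, Bdp1 and Maf1. This gave 36 of the 24411 genes listed in each library. Of these, 13 belong to Pol I, 2 encode subunits found in both polymerases and 21 belong to Pol III. Znrd1, Twistnb and Cd3eap are older symbols of the Pol I subunit genes Polr1h, Polr1f and Polr1g. The genes lie on 17 chromosomes.

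Pol I transcribes the ribosomal RNA precursor from the tandem rDNA repeats in the nucleolus. Pol III makes 5S ribosomal RNA, transfer RNAs and other short RNAs. Both enzymes are assembled from a catalytic pair of large subunits, a set of small subunits partly shared with RNA polymerase II (Pol II), and peripheral subunits of their own. Pol I is brought to the rDNA promoter by UBTF, by the SL1 complex of TBP with the TAF1A to TAF1D proteins, and by RRN3. Pol III is placed on its genes by TFIIIA (on 5S genes), TFIIIC and TFIIIB, and is repressed by MAF1. In mouse embryos the zygotic nuclei are silent for ribosomal RNA at first, and synthesis starts during the two-cell stage, when nucleoli begin to form. MYC is a known activator of both polymerases in other cells.

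The embryos were of the ICR strain, were produced by in vitro fertilization and were collected as late two-cell embryos at 36 hpi (hours post-insemination). Polyadenylated RNA was sequenced in 4 libraries, each made from 10 pooled embryos. Control embryos (DMSO, the solvent; 2 libraries) were compared with embryos cultured in 6 µM 10074-G5 (2 libraries), an inhibitor of the dimerization of MYC with its partner MAX, and both groups were kept in the same KSOM medium with bovine serum albumin. Solvent or inhibitor was added at the one-cell stage, at 3 hpi by the labels of the samples and at 6 hpi by the text of the series. The comparison asks how these genes were expressed when MYC was inhibited from before major zygotic genome activation until collection. The agent is a chemical inhibitor, and no library of embryos without MYC was analysed here. Levels are given as FPKM (fragments per kilobase of effective transcript length, scaled to the fragments of the library), which adjusts for transcript length. The log2FC is the edgeR log2 fold change of inhibitor-treated (below, treated) against control embryos.

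The expected counts of a library summed to between 18206584 and 20718690. DMSO replicate 1 stood apart from the other libraries. Its Pearson's r of log2 CPM (counts scaled to the library total) across 13549 tested genes, which are not independent replicates, was 0.887 with DMSO replicate 2, whereas DMSO replicate 2 reached 0.912 and 0.926 with the inhibitor-treated libraries. The log2FC of each gene and role group described below is therefore also given without DMSO replicate 1. All 12 markers of the two-cell embryo, among them Zscan4d and Zfp352, were detected in every library, with a summed FPKM of 1879 and 5511 in control and 7802 and 7565 in treated embryos. The 12 transcripts stored by the oocyte, among them Gdf9 and Bmp15, were also all detected and summed to 999.8 and 2513 FPKM in control and 4920 and 4074 FPKM in treated embryos. Of 10 cumulus and granulosa cell markers, Ptx3, Amh, Inha and Foxl2 were at 0 in every library, and the list summed to between 0.72 and 5.48 FPKM in control and between 2.63 and 6.74 FPKM in treated embryos. Of 6 sperm markers, Prm1 and Tnp2 were at 0 throughout, with sums of 2.7 and 4.44 FPKM in control and 16.1 and 9.43 FPKM in treated embryos. The 6 blastocyst markers summed to 2.29 and 10.2 FPKM in control and 10.8 and 11.2 FPKM in treated embryos. Of the 12 stored transcripts, 11 had a log2FC above 0, and Zp3 went the other way and was highest in DMSO replicate 1. Zp3 had 205 and 75.1 FPKM in control and 59 and 65.1 FPKM in treated embryos (log2FC -1.37, and -0.27 without DMSO replicate 1). The sums of the two-cell and of the oocyte transcripts were lowest in DMSO replicate 1, and their part in the differences below was not tested.

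MYC and MAX bind the E-box CACGTG, so this motif was searched in the RefSeq promoter sequences (GRCm38.p6, from 250 bases before to 50 bases after a gene's start) that were at hand for 30 of the 36 genes. Polr3a, Polr3d, Brf1, Brf2 and Maf1 were among those without one. The motif, which reads the same on both strands, was found for 6 genes (20.0%), which were Cd3eap, Polr3c, Polr3e, Polr3gl, Rrn3 and Gtf3c6. It was found for 8.09% of all 27025 genes with a promoter sequence and for 11.5% of the 10307 such genes that were tested. Polr3gl was not tested, so among the tested genes of the 36 the motif was found for 5 and not for 24. The B box, a pattern inside transfer RNA genes that TFIIIC binds (searched as GGTTCGA, any 2 bases and CC), was searched on both strands and was found for 1 of the 30 genes, Polr3e, against 0.148% of all genes with a promoter sequence. Capitals mark these motifs in the 5 promoters below, in each of which no motif overlaps another. Cd3eap and Rrn3 are shown because each has 2 E-boxes, Polr3e because it has both motifs, and Twistnb and Polr3g because they were among the genes called lower by DESeq2 and have neither.
Cd3eap, chr7:19359434-19359733, minus strand: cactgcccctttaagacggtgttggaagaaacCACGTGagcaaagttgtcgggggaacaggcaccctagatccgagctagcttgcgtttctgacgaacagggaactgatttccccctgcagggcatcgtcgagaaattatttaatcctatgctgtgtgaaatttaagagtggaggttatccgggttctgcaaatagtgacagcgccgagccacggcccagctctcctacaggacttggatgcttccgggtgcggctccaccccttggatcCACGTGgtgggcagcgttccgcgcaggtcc
Rrn3, chr16:13780449-13780748, plus strand: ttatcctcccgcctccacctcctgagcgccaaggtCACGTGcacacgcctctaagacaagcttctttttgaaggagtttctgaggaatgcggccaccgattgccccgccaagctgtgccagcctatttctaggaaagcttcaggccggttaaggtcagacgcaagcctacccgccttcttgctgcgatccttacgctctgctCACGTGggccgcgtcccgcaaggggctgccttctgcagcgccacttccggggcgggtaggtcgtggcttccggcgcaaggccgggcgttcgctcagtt
Polr3e, chr7:120917528-120917827, plus strand: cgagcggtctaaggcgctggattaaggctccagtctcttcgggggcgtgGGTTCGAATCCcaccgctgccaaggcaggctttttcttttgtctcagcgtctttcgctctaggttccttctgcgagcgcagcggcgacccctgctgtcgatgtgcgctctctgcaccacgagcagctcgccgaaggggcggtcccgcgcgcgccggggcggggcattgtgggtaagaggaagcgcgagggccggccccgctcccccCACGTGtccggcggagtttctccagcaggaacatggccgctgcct
Twistnb, chr12:33429374-33429673, plus strand: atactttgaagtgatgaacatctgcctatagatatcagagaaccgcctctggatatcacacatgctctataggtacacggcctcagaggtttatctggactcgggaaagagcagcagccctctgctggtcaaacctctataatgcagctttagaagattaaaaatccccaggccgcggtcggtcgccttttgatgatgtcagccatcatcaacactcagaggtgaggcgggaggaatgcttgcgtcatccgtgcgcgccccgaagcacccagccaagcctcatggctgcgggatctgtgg
Polr3g, chr13:81710964-81711263, minus strand: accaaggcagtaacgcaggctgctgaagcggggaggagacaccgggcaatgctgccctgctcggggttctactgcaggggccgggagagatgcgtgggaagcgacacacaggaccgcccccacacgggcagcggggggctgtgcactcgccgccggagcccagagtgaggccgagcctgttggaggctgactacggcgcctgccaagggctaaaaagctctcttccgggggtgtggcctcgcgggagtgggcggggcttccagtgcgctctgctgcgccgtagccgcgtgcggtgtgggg

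Counted from the first transcribed base as 0, the E-boxes began at -218 and 20 in Cd3eap, at -215 and -48 in Rrn3 and at 5 in Polr3e. The B box of Polr3e began at -201 and lies in an annotated transfer RNA gene, n-TLaag4 (chromosome 7, 120917517 to 120917598), which ends 179 bases before Polr3e. A transfer RNA gene within 1000 bases of the gene's span was annotated for no other of the 36 genes and for 0.404% of 12877 tested genes. The median log2FC was -0.72 for the 5 tested genes with an E-box and -0.88 for the 24 without, with ranges of -1.71 to -0.26 and of -2.04 to 0.31. These matches describe letters in the promoter windows, and no binding was measured.

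The levels of genes whose products form 1 complex differed widely. Among the tested genes, the mean FPKM in control embryos ran from 0.905 (Taf1c) to 869.9 (Taf1d), and both are subunits of SL1. The large catalytic subunits of Pol I had low levels, with 4.21 ± 0.54 FPKM for Polr1a and 8.04 ± 4.24 FPKM for Polr1b (SD, n = 2 control libraries). The small subunit Znrd1 reached 643 ± 359 FPKM and the shared subunit Polr1d 653 ± 126 FPKM (SD, n = 2). Per length, Polr1d was between 110 and 162 times as high as Polr1a in every library. Their mean effective lengths were 631 and 5831 bases, and in DMSO replicate 1 they had 8955 and 512 counts. The part of transcript length in these levels was not tested. In Pol III, the small subunit Polr3k had the highest mean (254 ± 97.7 FPKM), and the catalytic subunits Polr3a and Polr3b had 15.6 ± 6.58 and 14.2 ± 2.45 FPKM (SD, n = 2).

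**Figure D1:**
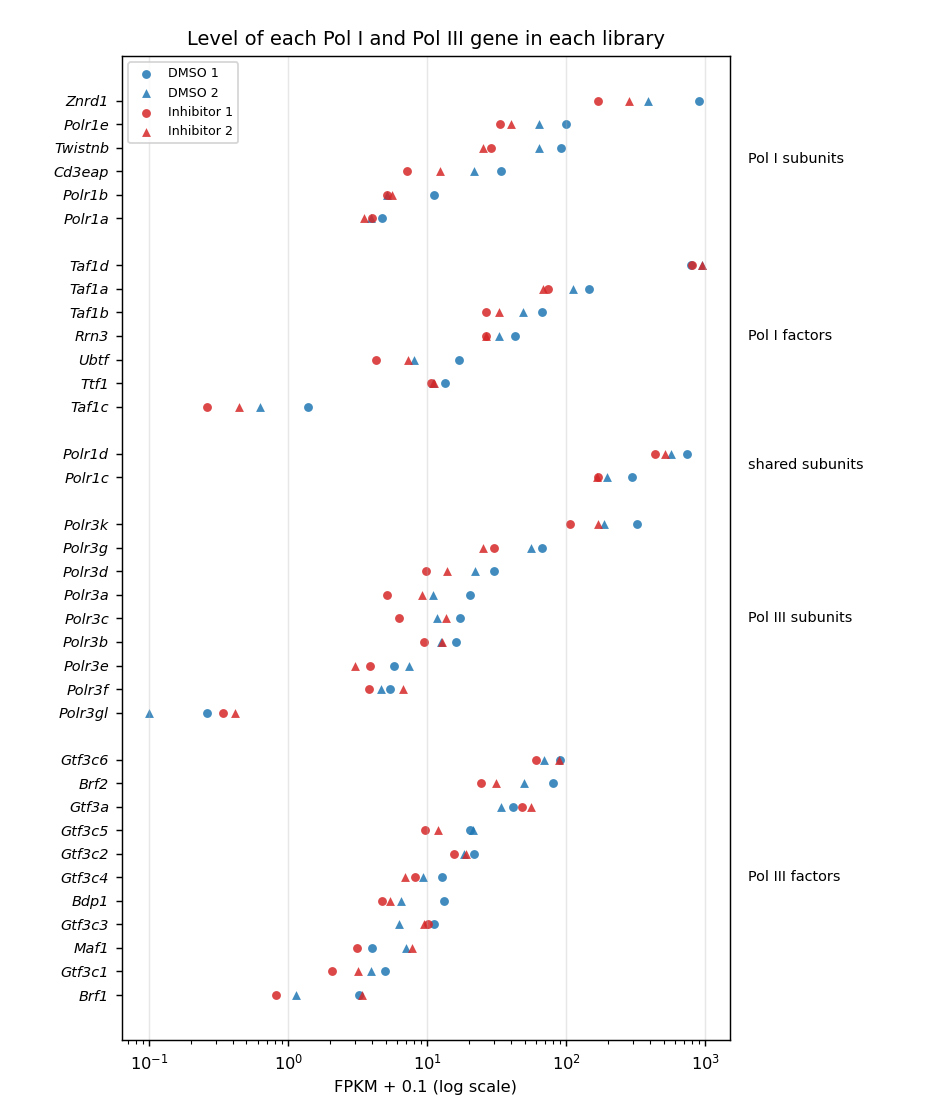
FPKM + 0.1 on a log axis (x) of 35 of the 36 genes (y), grouped by role and ordered by the control mean, with 1 point for each library (circles replicate 1, triangles replicate 2, blue DMSO, red inhibitor-treated). Levels span from below 1 FPKM (Polr3gl, Taf1c) to 869.9 FPKM in the control mean (Taf1d), and in most rows the red points lie to the left of the blue ones.

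Of the 36 genes, 35 passed the filter on low counts, and all but Gtf3a of these had a log2FC below 0 (34 of 35, where 48.5% of all tested genes were below 0), while Polr3f, Taf1d and Gtf3c3 also lay above 0 when libraries were scaled by their totals. Their median log2FC was -0.95, against 0.04 for all 13549 tested genes. In CPM with TMM factors the control and treated libraries did not overlap for 25 genes, all lower in treated embryos (28.3% of all tested genes in that direction). In FPKM this held for 22, without Polr3b, Ttf1 and Taf1d. In CPM 0 of the 35 were higher without overlap, against 28.9% of all genes, while in FPKM Gtf3a was. A gene was called where |log2FC| was over 1 and the Benjamini-Hochberg adjusted p was below 0.05. By edgeR 0 of the 35 were called (background 0% of 13549 genes), with adjusted p-values from 0.333 to 0.998. At an unadjusted edgeR p under 0.05, 15 of the 35 were lower (10.1% of all genes) and 0 higher (4.72% of all genes), and limma on log2(FPKM + 1) gave 11 lower (8.59% of all genes in that fit) and 0 higher. DESeq2 with transcript lengths called 5 of the 36 lower, among them Twistnb, Cd3eap, Znrd1 and Polr3g (background 2.36% of 18208 genes), and 0 higher (background 0.456%). Over all alternatives the adjusted p ran from 0.000547 for Twistnb, 0.0024 for Cd3eap, 0.000672 for Znrd1 and 0.00151 for Polr3g up to 0.992 for each of them. With 2 libraries in each group, the smallest p of an exact permutation test on 1 gene, two-sided, is 0.333. In pooled embryos a smaller number of cells that express a gene and less RNA per cell cannot be told apart.

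DMSO replicate 1 had the higher CPM of the control libraries for 32 of the 35 genes (47.9% of all genes), and it lay farther than DMSO replicate 2 from the treated libraries for 31 (76.8% of all genes). A CPM ratio over 2 separated the control libraries for 10 of the 35 genes (43.4% of all genes) and the treated libraries for 4 (21.9% of all genes), both lower shares than over all genes. Without DMSO replicate 1 the median log2FC of the 35 genes was -0.35, against 0.03 for all genes, and 29 of 35 were below 0 (47.0% of all genes). An unadjusted p under 0.05 then held for 12 lower genes (7.36% of all genes). This count was 25 without DMSO replicate 2 (20.5% of all genes), 2 without the first (2.05% of all genes) and 4 without the second inhibitor-treated library (3.73% of all genes).

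**Figure D2:**
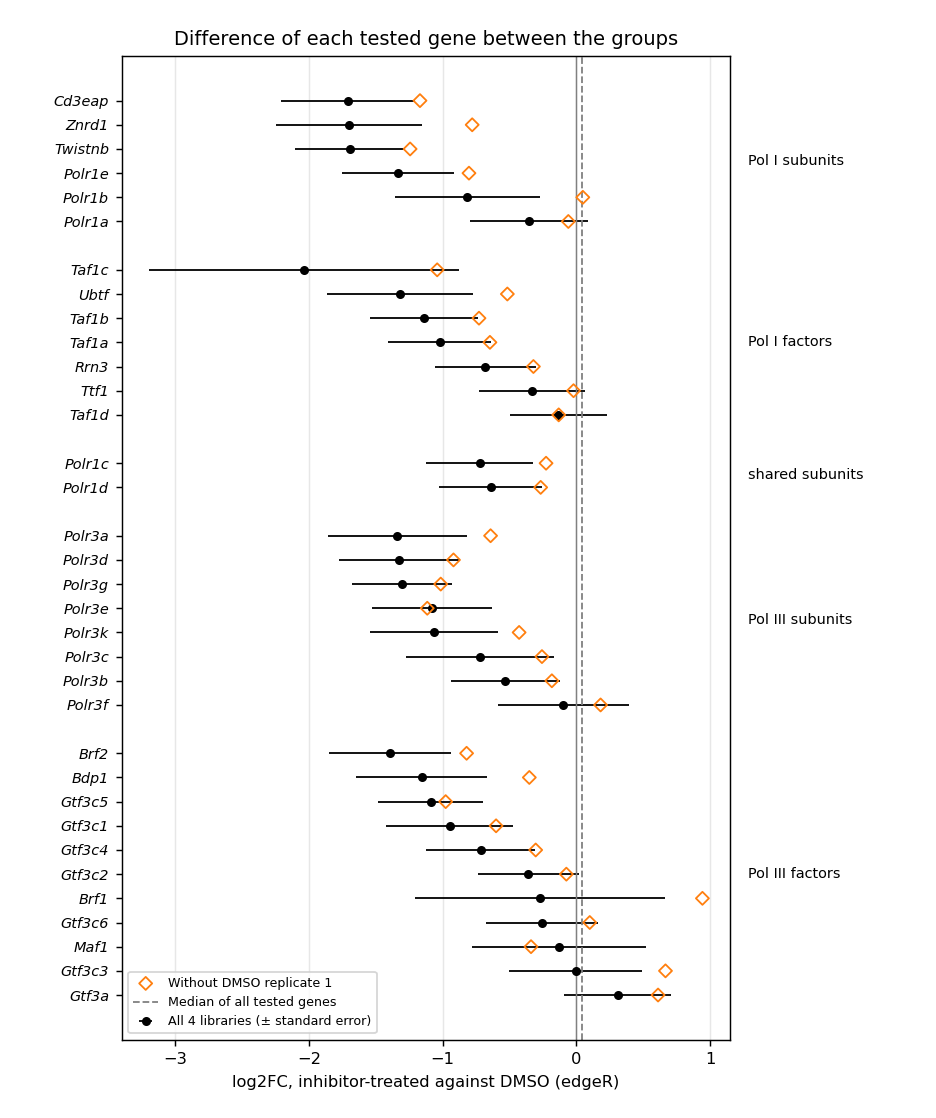
The edgeR log2FC of 34 of the 35 tested genes (x) by role (y), as black points with standard errors over all 4 libraries and as orange diamonds without DMSO replicate 1, with the median of all tested genes (0.04) dashed. The black points run from -2.04 (Taf1c) to 0.31 (Gtf3a), and most diamonds lie closer to 0.

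The 6 subunits of Pol I alone had a median log2FC of -1.51 (-0.79 without DMSO replicate 1). Of these, 4 were lower at an unadjusted edgeR p under 0.05 (10.1% of all genes). Twistnb (chromosome 12, 33429624 to 33439380 of GRCm38.p6), which encodes the RPA43 subunit of the stalk that contacts RRN3, had 91.4 and 63.5 FPKM in control and 28.8 and 24.9 FPKM in treated embryos. Both treated libraries were below both control libraries by over 2-fold. Its log2FC was -1.69 (standard error 0.41, edgeR adjusted p = 0.333), the DESeq2 adjusted p was 0.013, and without DMSO replicate 1 the log2FC was -1.24. Cd3eap (chromosome 7, 19356007 to 19359483), which encodes RPA34, a partner of RPA49 in a Pol I subcomplex, had 33.9 and 21.6 FPKM in control and 7.02 and 12.2 FPKM in treated embryos. The groups did not overlap, and the log2FC was -1.71 (standard error 0.50, edgeR adjusted p = 0.333, DESeq2 adjusted p = 0.0334) and -1.17 without DMSO replicate 1. Its span overlaps that of Ercc1, and reads from overlapping parts cannot be told apart without strand.

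Znrd1 (chromosome 17, 36954358 to 36958525), which encodes the small subunit that takes part in cleavage of the nascent RNA, had 898 and 389 FPKM in control and 170 and 281 FPKM in treated embryos. The first control library was over 2-fold above the second, which was still above both treated libraries. The log2FC was -1.70 (standard error 0.54, edgeR adjusted p = 0.333, DESeq2 adjusted p = 0.033) and -0.78 without DMSO replicate 1. Polr1e, the gene of RPA49, had 99.0 and 63.5 FPKM in control and 33.3 and 39.6 FPKM in treated embryos, with a log2FC of -1.33 (standard error 0.42, edgeR adjusted p = 0.333) and of -0.80 without DMSO replicate 1. The catalytic subunits differed less. Polr1a (chromosome 6, 71909053 to 71979435) had 4.59 and 3.82 FPKM in control and 3.91 and 3.42 FPKM in treated embryos. These groups overlapped, and its log2FC was -0.35 (standard error 0.44, edgeR adjusted p = 0.708) and -0.06 without DMSO replicate 1. Polr1b had 11 and 5.04 FPKM in control and 5.0 and 5.43 FPKM in treated embryos, so that only DMSO replicate 1 stood above the rest, and its log2FC of -0.82 became 0.05 without that library.

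The 7 Pol I initiation and termination factors had a median log2FC of -1.02 (-0.52 without DMSO replicate 1). In CPM all 7 were lower in treated embryos without overlap (28.3% of all genes). At an unadjusted edgeR p under 0.05, 3 were lower (10.1% of all genes). Rrn3 (chromosome 16, 13780699 to 13814841), the factor that makes Pol I competent to initiate and whose promoter is shown above, had 42.6 and 32.9 FPKM in control and 26.2 and 26.5 FPKM in treated embryos. Treated libraries were alike and below both controls, with a log2FC of -0.68 (standard error 0.38, edgeR adjusted p = 0.403) and of -0.32 without DMSO replicate 1. Ubtf (chromosome 11, 102304560 to 102323649), the HMG-box protein that covers active rDNA, had 16.7 and 7.96 FPKM in control and 4.14 and 7.14 FPKM in treated embryos. For Ubtf, the second control library lay close to the second treated library, and the log2FC was -1.32 (standard error 0.55, edgeR adjusted p = 0.334) and -0.52 without DMSO replicate 1.

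The SL1 genes had unequal differences. Taf1b had 67.2 and 48.6 FPKM in control and 26.2 and 32.6 FPKM in treated embryos (log2FC -1.14, standard error 0.41, edgeR adjusted p = 0.333). Taf1a had 146 and 111 FPKM in control and 74.2 and 67.7 FPKM in treated embryos (log2FC -1.02, standard error 0.38, edgeR adjusted p = 0.333). Taf1b and Taf1a both kept a gap between the groups, and their log2FC was -0.73 and -0.65 without DMSO replicate 1. Taf1c was near the lower end of detection, with counts of 73 and 28 in control and 10 and 20 in treated embryos, and its log2FC of -2.04 had a standard error of 1.16 and became -1.04 without DMSO replicate 1. Taf1d, the most abundant of all 36 genes, had 789 and 950 FPKM in control and 795 and 952 FPKM in treated embryos, which overlap. Its log2FC of -0.13 (standard error 0.36), which was also -0.13 without DMSO replicate 1, turned to 0.00292 when libraries were scaled by their totals instead. The span of Taf1d overlaps 10 other annotated genes, Cep295 among them, and its reads are uncertain to that extent. Ttf1, the gene of the Pol I termination factor, had 13.4 and 10.9 FPKM in control and 10.5 and 11 FPKM in treated embryos (log2FC -0.33, standard error 0.40, edgeR adjusted p = 0.696), its FPKM overlapped, and without DMSO replicate 1 the log2FC was -0.02.

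Polr1c and Polr1d encode the RPAC1 and RPAC2 subunits, a pair that nucleates the assembly of both Pol I and Pol III. Polr1c (chromosome 17, 46243920 to 46248045) had 297 and 197 FPKM in control and 168 and 167 FPKM in treated embryos, which gave a log2FC of -0.72 (standard error 0.40, edgeR adjusted p = 0.406). Polr1d (chromosome 5, 147076715 to 147111361) had 742 and 564 FPKM in control and 431 and 509 FPKM in treated embryos, which gave a log2FC of -0.64 (standard error 0.39, edgeR adjusted p = 0.432). The groups did not overlap for either gene, where 28.3% of all genes were lower without overlap in CPM. Without DMSO replicate 1 the log2FC was -0.23 and -0.27. The median of the pair, -0.68, was closer to 0 than those of the Pol I and Pol III subunits.

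Of the 10 Pol III subunit genes, 9 were tested, with a median log2FC of -1.08 (-0.64 without DMSO replicate 1). Of the 9, 5 were lower at an unadjusted edgeR p under 0.05 (10.1% of all genes). Crcp, which encodes a subunit of the Pol III stalk and was not taken by the symbol rule, had 83.5 and 87.9 FPKM in control and 38.1 and 33.0 FPKM in treated embryos. Its control libraries were alike, and the log2FC was -1.41 (standard error 0.37, edgeR adjusted p = 0.333) and -1.30 without DMSO replicate 1. DESeq2 called Crcp lower.

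Polr3g (chromosome 13, 81673837 to 81711013) encodes RPC7α, the form of the RPC7 subunit known from stem cells, oocytes and tumours, and Polr3gl (chromosome 3, 96577872 to 96594181) encodes RPC7β, the form of most differentiated tissues. Polr3g had counts of 3527 and 2809 in control and 1723 and 1385 in treated embryos, and Polr3gl had 3 and 0 in control and 5 and 7 in treated embryos. Polr3g was thus the form detected at this stage in both groups, and Polr3gl, whose counts lay near the floor of 3 counts behind a 0, was the only gene of the 36 that was not tested. In FPKM, Polr3g had 66.2 and 55.5 in control and 29.9 and 25.1 in treated embryos. The groups of Polr3g were separated by more than the spread within either, with a log2FC of -1.30 (standard error 0.37, edgeR adjusted p = 0.333, DESeq2 adjusted p = 0.0449) and of -1.01 without DMSO replicate 1.

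Among the other Pol III subunits, Polr3a (chromosome 14, 24448694 to 24487070), the catalytic subunit that carries the active site, had 20.2 and 10.9 FPKM in control and 5.06 and 8.98 FPKM in treated embryos. Its second control library was close to the second treated library, and the log2FC was -1.34 (standard error 0.52, edgeR adjusted p = 0.333) and -0.64 without DMSO replicate 1. Polr3d and Polr3e, which encode a pair of subunits that acts in termination and reinitiation, had log2FC values of -1.33 and -1.08, and that of Polr3d was -0.92 without DMSO replicate 1. Polr3e, the gene with both promoter motifs, had 5.68 and 7.30 FPKM in control and 3.79 and 2.90 FPKM in treated embryos. It was 1 of the 3 tested genes in which DMSO replicate 2 was the higher control in CPM, and its log2FC was -1.11 without DMSO replicate 1. Polr3k, the RNA-cleaving subunit, had a log2FC of -1.07, Polr3c -0.72, Polr3b -0.53 and Polr3f -0.10. Without DMSO replicate 1 these values were -0.43, -0.26, -0.18 and 0.18, and the libraries of Polr3c and Polr3f overlapped between the groups.

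The 11 Pol III initiation factors and their repressor had a median log2FC of -0.36 (-0.30 without DMSO replicate 1). In CPM 6 of them overlapped between the groups, and 5 were lower without overlap (28.3% of all genes). At an unadjusted edgeR p under 0.05, 3 of the 11 were lower (10.1% of all genes). In TFIIIB, Brf2 (chromosome 8, 27123339 to 27128715), which serves genes with an upstream promoter such as those of U6 and 7SK RNA, had 80.2 and 49.2 FPKM in control and 24.4 and 31.2 FPKM in treated embryos. Both controls were above both treated libraries, with a log2FC of -1.39 (standard error 0.46, edgeR adjusted p = 0.333) and of -0.82 without DMSO replicate 1. The span of Brf2 overlaps that of Adgra2, and the span of Brf1 overlaps that of Btbd6. Brf1 (chromosome 12, 112955631 to 113000706), which serves transfer RNA and 5S genes, had 3.14 and 1.04 FPKM in control and 0.72 and 3.30 FPKM in treated embryos. These groups overlapped, the log2FC of -0.27 (standard error 0.94) became 0.94 without DMSO replicate 1, and Brf2 was between 9.47 and 47.3 times as high as Brf1 per length in every library. Bdp1, the TFIIIB scaffold, had 13.1 and 6.36 FPKM in control and 4.65 and 5.33 FPKM in treated embryos, with a log2FC of -1.16 (standard error 0.49, edgeR adjusted p = 0.334) and of -0.35 without DMSO replicate 1.

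Among the TFIIIC genes, Gtf3c5 (chromosome 2, 28566245 to 28583279), a subunit that binds near the start of transfer RNA genes, had 20.2 and 21.1 FPKM in control and 9.51 and 11.9 FPKM in treated embryos. Its replicates were close in both groups, and the log2FC was -1.09 (standard error 0.39, edgeR adjusted p = 0.333) and -0.98 without DMSO replicate 1. The log2FC was -0.95 for Gtf3c1, the subunit that binds the B box, -0.71 for Gtf3c4, -0.36 for Gtf3c2, -0.26 for Gtf3c6 and -0.00454 for Gtf3c3. Without DMSO replicate 1 these values were -0.60, -0.30, -0.07, 0.10 and 0.67. Gtf3a (chromosome 5, 146948657 to 146955614), the TFIIIA gene, had 40.9 and 33.8 FPKM in control and 47.9 and 55.2 FPKM in treated embryos. It was the only gene with a log2FC above 0 under TMM scaling (0.31, standard error 0.40, edgeR adjusted p = 0.720, and 0.61 without DMSO replicate 1). Its CPM overlapped between the groups by the first control and the first treated library, while its FPKM did not overlap. The span of Gtf3a overlaps that of Mtif3. Gtf3a and Polr1d lie 121 kb apart on chromosome 5. Maf1 (chromosome 15, 76351294 to 76354378) had 3.87 and 6.91 FPKM in control and 3.04 and 7.62 FPKM in treated embryos, and its difference was a log2FC of -0.13 (standard error 0.65, edgeR adjusted p = 0.935). The replicates of Maf1 differed more than the groups, and without DMSO replicate 1 the log2FC was -0.34.

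The Pol I, shared and Pol III parts were set side by side through the median log2 CPM of each part, with each gene centred on its mean over the libraries. For Pol I these medians were 1.02 and 0.08 in control and -0.69 and -0.41 in treated embryos. For Pol III they were 0.73 and -0.01 in control and -0.64 and -0.17 in treated embryos, and for the shared pair 0.69 and -0.06 in control and -0.36 and -0.28 in treated embryos. In all 3 parts the order was the same, with DMSO replicate 1 highest, DMSO replicate 2 next and the first inhibitor-treated library lowest. These centred medians are deviations from each gene's own mean and not levels. The median of Pol I minus that of Pol III was 0.28 and 0.09 in control and -0.05 and -0.24 in treated embryos. The means were 0.19 ± 0.13 and -0.15 ± 0.14 (SD, n = 2). Through the centring, opposite signs of such a difference in the groups restate a gap in log2FC and are not a further result. The median log2FC was -1.14 for Pol I, -0.68 for the shared pair and -0.83 for Pol III, and -0.65, -0.25 and -0.34 without DMSO replicate 1. Subunits shared between polymerases (median -0.68 for the pair, -0.64 for the 5 in all 3 polymerases) were left out of the next comparison. Both of these values were above the -1.02 of the Pol I factors. The median log2FC of the remaining subunits was lower than that of the factors in both machineries. In Pol III it was -1.08 against -0.36 (-0.64 against -0.30 without DMSO replicate 1). In Pol I it was -1.51 against -1.02 (-0.79 against -0.52 without DMSO replicate 1). The centred median of subunits minus that of factors in Pol III was 0.26 and 0.15 in control and -0.24 and -0.20 in treated embryos. For Pol I it was 0.33 and 0.04 in control and -0.31 and -0.12 in treated embryos. These differences between parts are descriptions of few genes, and no test was made of them.

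**Figure D3:**
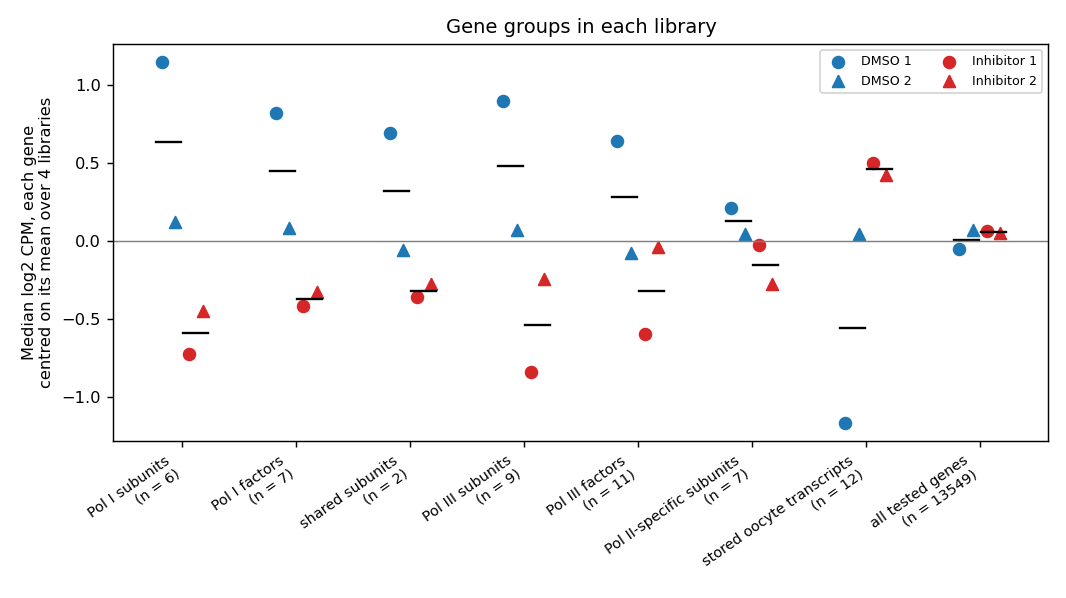
Median log2 CPM of gene groups (y, each gene centred on its mean over the 4 libraries), with 1 point for each library and black lines for group means, for the Pol I, shared and Pol III groups, the Pol II-specific subunits, the transcripts stored by the oocyte and all tested genes. In the Pol I and Pol III groups DMSO replicate 1 is highest, from 0.64 to 1.15, and in the oocyte transcripts it is lowest, at -1.16.

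Other genes of the pathway were taken from lists of each group. The 5 subunits that all 3 nuclear polymerases share had a median log2FC of -0.64. All 5 were lower without overlap (28.3% of all genes), and 1 of 5 was lower at an unadjusted edgeR p under 0.05 (10.1% of all genes). This was Polr2h, which had 806 and 555 FPKM in control and 280 and 323 FPKM in treated embryos (log2FC -1.34, and -0.87 without DMSO replicate 1, standard error 0.40, edgeR adjusted p = 0.333), and DESeq2 called it lower. The 7 Pol II-specific subunits had a median log2FC of -0.25, with 1 of 7 lower at an unadjusted edgeR p under 0.05 (10.1% of all genes). This was Polr2i, which had 268 and 134 FPKM in control and 70.2 and 95.2 FPKM in treated embryos (log2FC -1.46, standard error 0.50, edgeR adjusted p = 0.333). The log2FC of Polr2i was -0.69 without DMSO replicate 1, so the Pol II list too held a gene with a difference of that size. Of 11 further Pol III components and factors of snRNA genes, 4 were lower (10.1% of all genes) and 0 higher (4.72% of all genes) at an unadjusted edgeR p under 0.05. The median log2FC of the 11 was -0.38, with 8 below 0 (48.5% of all genes) and 3 above. Among these 11, Crcp, described above, had the smallest p. Tbp, the TATA-binding protein used by all 3 polymerases, had 236 and 187 FPKM in control and 111 and 145 FPKM in treated embryos (log2FC -0.88, and -0.54 without DMSO replicate 1, standard error 0.39, edgeR adjusted p = 0.343).

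Of 13 listed regulators of rDNA transcription and chromatin, 12 had a log2FC below 0 (48.5% of all genes), with a median of -0.82. At an unadjusted edgeR p under 0.05, 5 were lower (10.1% of all genes). Ddx21, a helicase of the nucleolus, had 50.2 and 26.6 FPKM in control and 11 and 14.1 FPKM in treated embryos (log2FC -1.80, and -1.08 without DMSO replicate 1, standard error 0.47, edgeR adjusted p = 0.333), and DESeq2 called it lower. Ubtfl1, a gene related to Ubtf that is expressed in preimplantation embryos, had 136 and 211 FPKM in control and 159 and 199 FPKM in treated embryos. The libraries of Ubtfl1 overlapped (log2FC -0.07, and -0.24 without DMSO replicate 1, standard error 0.37, edgeR adjusted p = 0.937), and it was above Ubtf in FPKM in every library. Without DMSO replicate 1 the median log2FC was -0.29 for the subunits of all polymerases and -0.13 for the Pol II-specific subunits. It was -0.37 for the further Pol III components and snRNA gene factors and -0.38 for the rDNA regulators.

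The products of Pol I and Pol III are mostly without a poly(A) tail and were not measured by these libraries. Of 11 such transcripts looked for, 5 were listed, and Rmrp and Rnu6 were at 0 in every library. Rpph1 had 3 counts in DMSO replicate 1 alone, Vaultrc5 had 8 counts in the first inhibitor-treated library alone, and only Rn45s, the ribosomal RNA precursor, was tested. It had 75.7 and 88.7 FPKM in control and 68.8 and 72.5 FPKM in treated embryos. Both treated values were below both control values, by a log2FC of -0.36 (standard error 0.35, edgeR adjusted p = 0.623) and of -0.33 without DMSO replicate 1. Uniquely mapped reads of poly(A)-selected RNA do not give the output of the repeated rDNA.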

How the data were processed

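Late two-cell embryos in 2 groups of 2 libraries were grouped and numbered by their labels. The authors made SMART-Seq v4 PLUS libraries, aligned read pairs to mm10 with STAR 2.7.10, kept uniquely mapped reads and quantified RefSeq genes with RSEM 1.3.3. The expected count deposited is RSEM's unnormalized estimate of fragments per gene. TPM and FPKM were deposited by the authors per effective length and library, and TPM was not used in a test. The authors called genes with DESeq2. How strand was treated is not given in the sources used here, and copies made by PCR count as separate fragments.

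Expected counts were rounded. edgeR 4.0.16 in R 4.3.3 (filterByExpr, minimum count 10, total 15; TMM factors from 0.873 to 1.06; robust quasi-likelihood fit; Benjamini-Hochberg adjustment over 13549 genes) gave the tests, and standard errors were derived from its F statistic. TMM factors put the median log2FC of all genes at 0.04, and library totals put it at 0.17. The common coefficient of variation between libraries was 0.557, and p-values measure only the spread between these libraries. Only the main edgeR fit was tried on simulated counts, in which no library stood apart as DMSO replicate 1 did. Alternatives were DESeq2 1.42.0 without and with transcript lengths, limma 3.58.1 on log2(FPKM + 1) and log2(FPKM + 0.1) at a mean FPKM of at least 1, other scaling factors and filters, the replicate number as a block, and each library left out. The genes and lists were chosen with earlier results of these data known, and the promoter motifs and neighbouring transfer RNA genes after the values were seen. Values by library are given for the 2 genes of each role with the smallest edgeR p, all genes called or with a log2FC above 0, and preset genes of interest. Polr1e, Polr1b, Taf1c, Taf1d, Ttf1, Bdp1 and Polr3e were added after their values were seen. Positions and promoters are from RefSeq on GRCm38.p6, the build of mm10, and 36 of 36 symbols matched. The values of 1 of the 36 genes are not reported here, though the counts and medians include it. A gene's span overlapped another annotated gene for 12 of the 36. Among them were Polr1a, Polr1d, Polr1e, Polr3b, Polr3c and Taf1c, beside those named as such above.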

Additional observations from a re-analysis of the deposited data

How the results depend on the processing

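edgeR called 0 of the 35 genes at the thresholds given above. DESeq2 called 6 lower on the same genes (3.48% of all genes in that fit) and 5 with transcript lengths (2.36%), edgeR without a filter on low counts called 4 (2.63%) and edgeR with the replicate number as a block called 1 (0.236%). The leave-one-out fits called from 0 to 19, with 19 without DMSO replicate 2 (14.1% of all genes) and 0 without each other library. DESeq2 size factors, library totals, the stricter count filter and both limma fits gave 0. The 15 genes lower at an unadjusted p under 0.05 became 9 under the replicate block (6.66% of all genes) and from 2 to 25 with 1 library left out, and no alternative gave a higher gene at that p. The replicate numbers share nothing that the labels name, and same-numbered libraries did not deviate together (r = -0.034 across 13549 genes). With 1 library left out, the median log2FC ran from -1.18 to -0.35 over all tested genes of both machineries, from -1.45 to -0.65 for Pol I, from -1.01 to -0.25 for the shared pair and from -1.21 to -0.34 for Pol III, and each was closest to 0 without DMSO replicate 1. Over the other alternatives the medians stayed below 0, and the one farthest from the main value was -0.59 over all tested genes of both machineries, in limma on log2(FPKM + 1). Those moves were smaller than the SD between replicates pooled over both groups, in which DMSO replicate 1 has a large share. With 1 control library left, that library is assumed to vary like the treated ones.

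The sign of log2FC held for 28 of 35 genes under every alternative that gave a value, and limma gave none for Taf1c. Polr1b turned to 0.049 without DMSO replicate 1 (range with 1 library left out -1.35 to 0.049). Polr3f turned to 0.0132 and 0.0077 in limma with a pseudocount of 1 and 0.1, to 0.0627 with library totals and to at most 0.29 with 1 library left out (lowest -0.55). Taf1d turned to 0.0066 in both limma fits, to 0.0029 with library totals and to 0.0118 with 1 library left out (lowest -0.25). Gtf3c3 turned to 0.21 and 0.24 in limma, 0.18 with library totals, 0.0293 with at least 10 counts in every library, 0.10 under the replicate block and from -0.46 to 0.67 with 1 library left out. With 1 library left out, Gtf3c6 ran from -0.54 to 0.10, Brf1 from -1.73 to 0.94 and Maf1 from -0.91 to 0.41. The cause was not tested. Depth limits Polr3gl, Taf1c and Brf1, for which DESeq2 gave no adjusted p.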
